A study of Mus musculus with 6 samples.

Results

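Genes of cholesterol and fatty acid synthesis that are driven by sterol regulatory element-binding proteins (SREBPs) were followed in RNA sequencing of cultured mouse lung endothelial cells (MLECs). The set held 30 genes, chosen by symbol, and all 30 were found among the 17463 entries of the deposited table of FPKM, fragments mapped to a gene scaled to its transcript length and to the library total. It comprised 7 genes of the mevalonate steps, 11 of the steps from squalene to cholesterol, 6 of fatty acid synthesis and 6 of SREBP control and sterol transport. The cells came from Hey1 iEC-KO mice with a HEY1-3KR iEC-KI (HEY1-3KR KI) and from Hey1 iEC-KO mice with a HEY1-WT iEC-KI (HEY1-WT KI). Both groups thus shared the Hey1 iEC-KO, and no treatment is named for either. HEY1 is a transcriptional repressor of the Notch pathway, and by its title the study concerns its modification by SUMO, a small protein. A name such as 3KR by convention marks lysine-to-arginine changes, which the labels do not spell out. There were 3 libraries per genotype, 6 in all. Age, the Cre driver and the number of mice were not given in the sources used here, and the labels do not tie a library to a mouse or a culture. If the 3 of a genotype shared one, every p-value below reflects technical spread alone. MLECs were grown in EGM-2 medium with fetal bovine serum.

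SREBPs are made as precursors in the membrane of the endoplasmic reticulum. SCAP escorts them to the Golgi, where proteases release the active factor, and INSIG proteins hold SCAP back when sterols are plentiful. SREBF2 encodes the form known mainly for cholesterol genes and SREBF1 the forms known mainly for fatty acid genes. Active SREBPs bind sterol regulatory elements beside NF-Y and SP1 sites, and INSIG1 is itself one of their targets. Endothelial cells can make cholesterol themselves and also take it up from lipoproteins in serum.

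Promoter sequences were available for 24 of the 30 genes in RefSeq (GRCm38.p6) and were scanned over the 250 bases before each annotated start. Fdps, Fdft1, Sqle, Scd1, Scd2 and Stard4 had no window. The letters searched, on both strands, were TCACNCCAC for a sterol regulatory element, CCAAT for an NF-Y box, CACGTG for a palindromic E-box, a type of site that HEY factors can bind, and GGGCGG for a GC box of SP1. None of these words contains another, and matches overlapped in 1 window, that of Fasn. A sterol regulatory element of that form was found in 1 of the 24, Hmgcs1, against 1.22% of all 27025 genes with a window and 1.18% of 9121 genes tested here. Its promoter is shown for that reason. Those of Idi1, which had the highest fold among the 30, and of Insig1 and Insig2, which moved in opposite directions, were chosen after their values were seen. Each line runs 5′ to 3′ and ends at the base before the start, with matches to any of the 4 words in capitals. Insig2 has 3 annotated starts, and the window of the first listed is shown.
Hmgcs1 (chr13:119690101-119690350, plus strand): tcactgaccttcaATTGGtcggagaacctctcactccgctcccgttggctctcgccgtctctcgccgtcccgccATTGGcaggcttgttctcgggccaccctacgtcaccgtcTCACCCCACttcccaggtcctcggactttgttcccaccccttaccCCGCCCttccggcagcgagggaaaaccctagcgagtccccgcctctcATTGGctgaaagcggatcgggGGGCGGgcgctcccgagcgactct
Idi1 (chr13:8885356-8885605, plus strand): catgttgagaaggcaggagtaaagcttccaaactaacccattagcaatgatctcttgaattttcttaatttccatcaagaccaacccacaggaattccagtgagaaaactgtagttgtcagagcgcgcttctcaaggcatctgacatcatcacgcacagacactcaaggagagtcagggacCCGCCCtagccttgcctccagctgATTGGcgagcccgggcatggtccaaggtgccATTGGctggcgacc
Insig1 (chr5:28071162-28071411, plus strand): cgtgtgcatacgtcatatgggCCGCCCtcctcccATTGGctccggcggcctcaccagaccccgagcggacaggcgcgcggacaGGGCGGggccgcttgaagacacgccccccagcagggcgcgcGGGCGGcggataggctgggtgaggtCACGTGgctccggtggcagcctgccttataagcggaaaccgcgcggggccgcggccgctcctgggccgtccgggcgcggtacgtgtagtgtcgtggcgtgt
Insig2 (chr1:121332590-121332839, minus strand): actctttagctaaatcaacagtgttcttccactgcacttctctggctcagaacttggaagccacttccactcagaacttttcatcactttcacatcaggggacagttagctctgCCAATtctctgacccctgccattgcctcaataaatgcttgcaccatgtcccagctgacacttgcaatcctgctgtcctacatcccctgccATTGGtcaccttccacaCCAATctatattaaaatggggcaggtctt

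In the Hmgcs1 promoter the sterol regulatory element lay at bases -137 to -129 from the start, between NF-Y boxes read on the opposite strand at -176 and -45. Idi1 held NF-Y boxes at -45 and -14 and a GC box at -69. Insig1 held an E-box at -101, an NF-Y box at -216 and 3 GC boxes, and the printed Insig2 window held 3 NF-Y boxes and no other match. Over the 24 genes an NF-Y box was present in 19 (79.2%), against 40.4% of the tested genes with a window. A GC box was present in 20 (83.3%), against 65.2%, and an E-box in Dhcr7, Hsd17b7, Insig1, Sc5d and Scap (20.8%), against 10.1%. Since 5 of the 24 genes have more than 1 window, a gene counted as holding a motif when any of its windows did. These shares are descriptions of letters in a window and carry no test.

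**Figure D1:**
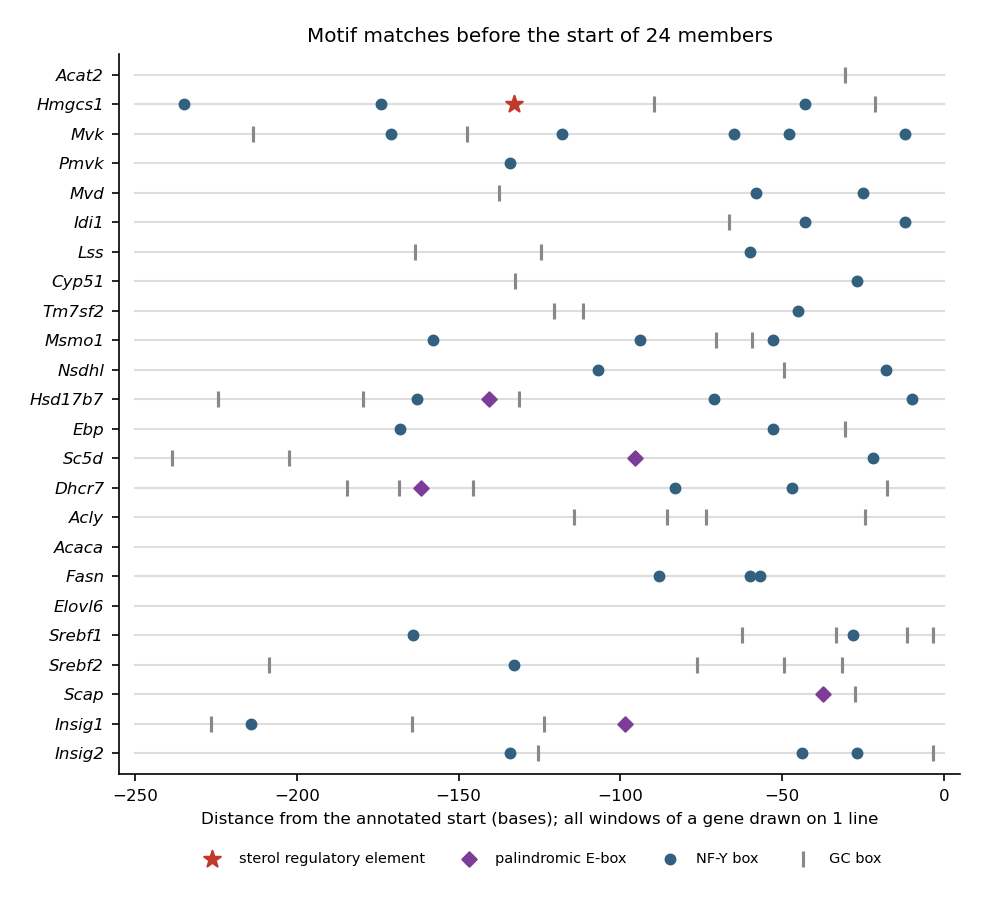
Positions of the 4 motifs in the 250 bases before the annotated start of the 24 genes with a RefSeq window, against the distance from the start in bases, with all windows of a gene on 1 line. NF-Y boxes were found in 19 of the 24 genes and the sterol regulatory element in Hmgcs1.

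The whole table set the scale for these genes. Summed FPKM was 258650 to 265056 in HEY1-3KR KI libraries and 260757 to 265967 in HEY1-WT KI libraries. The spacing of low values matched best a depth of 32750000 to 38900000 counted units in HEY1-3KR KI and 38650000 to 39600000 in HEY1-WT KI, and whether a unit is a read or a fragment was not settled, so depth is only approximate. Hey1 itself read 5.71, 5.24 and 4.87 FPKM in HEY1-3KR KI 1 to 3, against 2.21, 2.16 and 2.25 FPKM in HEY1-WT KI 1 to 3. The labels do not say whether the knock-in transcript is counted there, so it checks no label. Marker lists of several cell types moved with genotype, and each is given as the range of its summed FPKM, with its 3 members of highest mean level. Calls are those of the limma fit described below, at an adjusted p below 0.05. In that fit 29.9% of all tested genes were called higher and 23.4% lower. Endothelial markers (Cdh5, Cldn5 and Eng the highest) were called higher in 11 of 12, at 419 to 429 FPKM in HEY1-3KR KI and 254 to 267 FPKM in HEY1-WT KI. Macrophage markers (Lyz2, C1qb and C1qa the highest) were higher in 14 of 14, at 5487 to 5766 FPKM in HEY1-3KR KI and 4241 to 4329 FPKM in HEY1-WT KI, and in every library they summed above the endothelial markers. Fibroblast markers (Col1a1, Col1a2 and Col3a1 the highest) were higher in 9 of 9 tested, at 1179 to 1196 FPKM in HEY1-3KR KI and 601 to 608 FPKM in HEY1-WT KI. Epithelial markers (Scgb1a1, Sftpc and Krt8 the highest) were higher in 9 of 12, not including Scgb1a1, at 432 to 644 FPKM in HEY1-3KR KI and 117 to 226 FPKM in HEY1-WT KI. Genes of dividing cells (Pcna, Rrm2 and Plk1 the highest) were higher in 15 of 15, at 554 to 568 FPKM in HEY1-3KR KI and 328 to 335 FPKM in HEY1-WT KI. Smooth muscle markers (Acta2, Tagln and Des the highest) were higher in 1 of 8 tested and lower in 3, at 1065 to 1099 FPKM in HEY1-3KR KI and 1060 to 1083 FPKM in HEY1-WT KI. Adipocyte markers (Fabp4, Cfd and Cidec the highest) summed to 14.8 to 16.9 FPKM in HEY1-3KR KI and 21.6 to 24.3 FPKM in HEY1-WT KI, with 1 of 2 tested higher and 1 lower. No marker of these lists was at 0 in every library. The part of these cell types in the results below was not tested, and in bulk RNA a change in the number of cells of a type and a change in RNA per cell cannot be told apart.

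The genes of sterol synthesis were higher in HEY1-3KR KI cells along nearly the whole route, by 1.2-fold to 1.8-fold where they were called. Of the 30 genes, 22 were called higher and 2 lower in HEY1-3KR KI, at an adjusted p below 0.05 in limma over 11432 tested genes, and 6 were not called. Among all tested genes 53.2% were called, 29.9% higher and 23.4% lower, and among the 30 genes 73.3% were called higher and 6.67% lower. The 30 genes were chosen with earlier results of these data known, so this contrast of shares is a description and carries no test. All 30 had at least 1 FPKM in each of the 6 libraries. In 25 of the 30 every HEY1-3KR KI library lay above every HEY1-WT KI library, in 2 below, and in 3 the genotypes overlapped, where 61.1% of all tested genes did not overlap, 34.1% above and 27.0% below. The median log2 fold change was 0.33 among the 30 and 0.019 among all tested genes, on the scale of log2(FPKM + 1), which understates the change of low genes. The log2 fold changes of 20 of the 30 lay above the upper quartile of all tested genes, at 0.20, and those of Idi1 and Fdps lay above the 95th percentile, at 0.73. A call together with an FPKM ratio of at least 1.5 was reached by 9 of the 30 and by 10.1% of the tested genes.

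**Figure D2:**
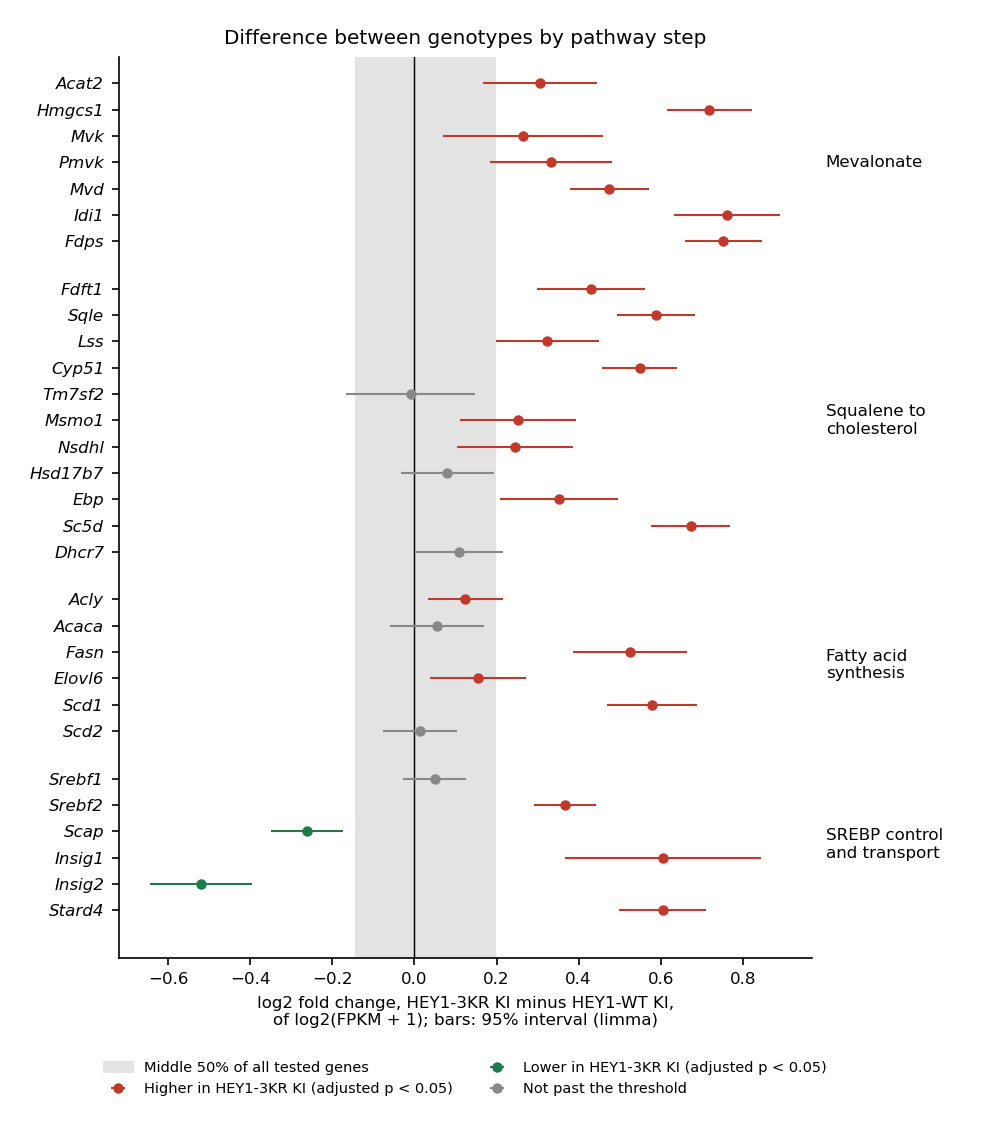
Log2 fold change of each of the 30 genes, HEY1-3KR KI minus HEY1-WT KI on the log2(FPKM + 1) scale, with its 95% interval from limma, by pathway step; the grey band spans the middle 50% of all tested genes. All 7 mevalonate genes lie to the right of 0, and Scap and Insig2 lie to the left.

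All 7 genes of the mevalonate steps rose, with a median log2 fold change of 0.47. Idi1 encodes the isomerase that interconverts the building blocks of isoprenoids and lies on chromosome 13 at 8885606 to 8892396 (GRCm38.p6). It read 16.4, 15.3 and 14.1 FPKM in HEY1-3KR KI 1 to 3, against 8.40, 8.51 and 8.84 FPKM in HEY1-WT KI 1 to 3. The lowest HEY1-3KR KI library was well above the highest HEY1-WT KI library, and the mean was 1.78-fold higher, a log2 fold change of 0.76 ± 0.0567 (SE, limma, adjusted p = 7.6e-06). Fdps, farnesyl diphosphate synthase on chromosome 3 at 89093588 to 89101967, read 20.7, 22.1 and 21.5 FPKM in HEY1-3KR KI 1 to 3, against 12.0, 12.2 and 12.7 FPKM in HEY1-WT KI 1 to 3. Its libraries were tight within each genotype, and it rose 1.74-fold, a log2 fold change of 0.75 ± 0.0409 (SE, limma, adjusted p = 1.1e-06). In GENCODE M21 Fdps shares 1124 exon bases with Gm43738 on the same strand, so its reads may have been split between them. Shorter overlaps with other annotated genes, mostly on the opposite strand, exist for Hmgcs1, Idi1, Lss, Cyp51, Srebf1, Scap and Elovl6, and their levels share that uncertainty. Hmgcs1, the cytosolic HMG-CoA synthase, lies on chromosome 13 at 119690351 to 119708260. Its levels were 24.8, 26.5 and 24.3 FPKM in HEY1-3KR KI 1 to 3, against 15.4, 14.4 and 15.03 FPKM in HEY1-WT KI 1 to 3. The genotypes did not overlap, and Hmgcs1 rose 1.69-fold, a log2 fold change of 0.72 ± 0.0454 (SE, limma, adjusted p = 2.8e-06).

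The other 4 mevalonate genes rose less. Mvd, the decarboxylase that yields isopentenyl diphosphate, had 20.9, 19.5 and 20.9 FPKM in HEY1-3KR KI 1 to 3, against 14.7, 14.5 and 14.1 FPKM in HEY1-WT KI 1 to 3, 1.42-fold higher (log2 fold change of 0.47 ± 0.0422, SE, limma, adjusted p = 2.2e-05). Pmvk, phosphomevalonate kinase, averaged 11.8 ± 1.01 FPKM in HEY1-3KR KI and 9.17 ± 0.471 FPKM in HEY1-WT KI (SD, n = 3 each), and Acat2, the cytosolic thiolase that starts the route, averaged 17.7 ± 0.926 FPKM in HEY1-3KR KI and 14.1 ± 1.10 FPKM in HEY1-WT KI (SD, n = 3 each). They rose 1.29-fold and 1.25-fold (limma, adjusted p = 0.00242 and 0.00269). Mvk, mevalonate kinase, read 16.2, 12.5 and 15.3 FPKM in HEY1-3KR KI 1 to 3, against 12.3, 11.3 and 12.3 FPKM in HEY1-WT KI 1 to 3. One HEY1-3KR KI library stood just above the HEY1-WT KI libraries, and the rise of 1.23-fold had the widest interval of the step, 0.07 to 0.46 on the log2 scale (limma, adjusted p = 0.028). The Mvk call was lost without HEY1-3KR KI replicate 1 or 3 (adjusted p = 0.0965 and 0.0777), without HEY1-WT KI replicate 2 or 3 (adjusted p = 0.0903 and 0.0512), and with no filter on low values (adjusted p = 0.0610). The summed level of the 7 genes was 130.1, 123 and 126 FPKM in HEY1-3KR KI 1 to 3, against 85.9, 82.9 and 87.9 FPKM in HEY1-WT KI 1 to 3, 1.48-fold higher.

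Of the 11 genes from squalene to cholesterol 8 rose, none fell and 3 were not called, with a median log2 fold change of 0.32. Sc5d, a sterol desaturase near the end of the route on chromosome 9 at 42251592 to 42264300, read 14.3, 14.5 and 14.1 FPKM in HEY1-3KR KI 1 to 3, against 8.49, 8.33 and 8.99 FPKM in HEY1-WT KI 1 to 3. The libraries of each genotype lay close together and far from the other genotype. Sc5d rose 1.66-fold, a log2 fold change of 0.67 ± 0.0422 (SE, limma, adjusted p = 2.6e-06), the highest fold of the step. Sqle, squalene epoxidase, an enzyme that limits flux into sterols, lies on chromosome 15 at 59315092 to 59331193. Its levels were 10.98, 11.1 and 10.8 FPKM in HEY1-3KR KI 1 to 3, against 7.12, 7.01 and 6.73 FPKM in HEY1-WT KI 1 to 3, and it rose 1.57-fold, a log2 fold change of 0.59 ± 0.0417 (SE, limma, adjusted p = 5.6e-06). Cyp51, the demethylase of lanosterol, read 16.2, 16.4 and 17.1 FPKM in HEY1-3KR KI 1 to 3, against 10.9, 10.8 and 11.2 FPKM in HEY1-WT KI 1 to 3. It rose 1.505-fold, a log2 fold change of 0.55 ± 0.0396 (SE, limma, adjusted p = 6.4e-06), with no overlap between genotypes.

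Fdft1, squalene synthase, which commits farnesyl diphosphate to sterols, averaged 13.1 ± 0.550 FPKM in HEY1-3KR KI and 9.50 ± 0.689 FPKM in HEY1-WT KI (SD, n = 3 each), 1.38-fold higher (limma, adjusted p = 2.6e-04). Fdft1 shares 774 exon bases on the opposite strand with Ctsb, which averaged 535 ± 7.64 FPKM in HEY1-3KR KI and 571 ± 4.11 FPKM in HEY1-WT KI, and the handling of strand is not given, so the level of Fdft1 is uncertain. Lss, lanosterol synthase, averaged 4.45 ± 0.172 FPKM in HEY1-3KR KI and 3.36 ± 0.204 FPKM in HEY1-WT KI, and Ebp, a sterol isomerase, averaged 15.7 ± 1.28 FPKM in HEY1-3KR KI and 12.1 ± 0.656 FPKM in HEY1-WT KI (SD, n = 3 each). Lss rose 1.33-fold and Ebp 1.301-fold (limma, adjusted p = 0.00109 and 0.00155). Msmo1 and Nsdhl, which remove methyl groups from the sterol ring in succession, rose 1.22-fold and 1.21-fold (limma, adjusted p = 0.00828 and 0.00948).

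Hsd17b7, the ketosteroid reductase that acts with them, averaged 4.36 ± 0.206 FPKM in HEY1-3KR KI and 4.07 ± 0.0653 FPKM in HEY1-WT KI (SD, n = 3 each) and was not called (log2 interval -0.03 to 0.19, adjusted p = 0.208). Dhcr7, the reductase of the last step, averaged 6.82 ± 0.234 FPKM in HEY1-3KR KI and 6.25 ± 0.180 FPKM in HEY1-WT KI and was not called either (log2 interval 0.0044 to 0.21, adjusted p = 0.0746). In both genes each HEY1-3KR KI library lay above each HEY1-WT KI library. Tm7sf2, a sterol reductase, had the lowest level of the 30, 1.34, 1.57 and 1.68 FPKM in HEY1-3KR KI 1 to 3, against 1.52, 1.65 and 1.46 FPKM in HEY1-WT KI 1 to 3. The genotypes overlapped, with a log2 interval of -0.17 to 0.15 (adjusted p = 0.919). Tm7sf2 shares 532 exon bases with Vps51 on the same strand, so the level of Tm7sf2 is uncertain. Vps51 averaged 9.84 ± 0.385 FPKM in HEY1-3KR KI and 8.67 ± 0.509 FPKM in HEY1-WT KI (SD, n = 3 each). It was called higher (limma, adjusted p = 0.0266). The summed level of the 11 genes was 106, 104 and 104 FPKM in HEY1-3KR KI 1 to 3, against 78.0, 75.3 and 78.6 FPKM in HEY1-WT KI 1 to 3, 1.35-fold higher. Between mean FPKM and FPKM ratio the Spearman rho was 0.182 across all 30 genes and 0.637 across the 18 of both sterol steps, a description of genes that share the same 6 libraries.

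**Figure D3:**
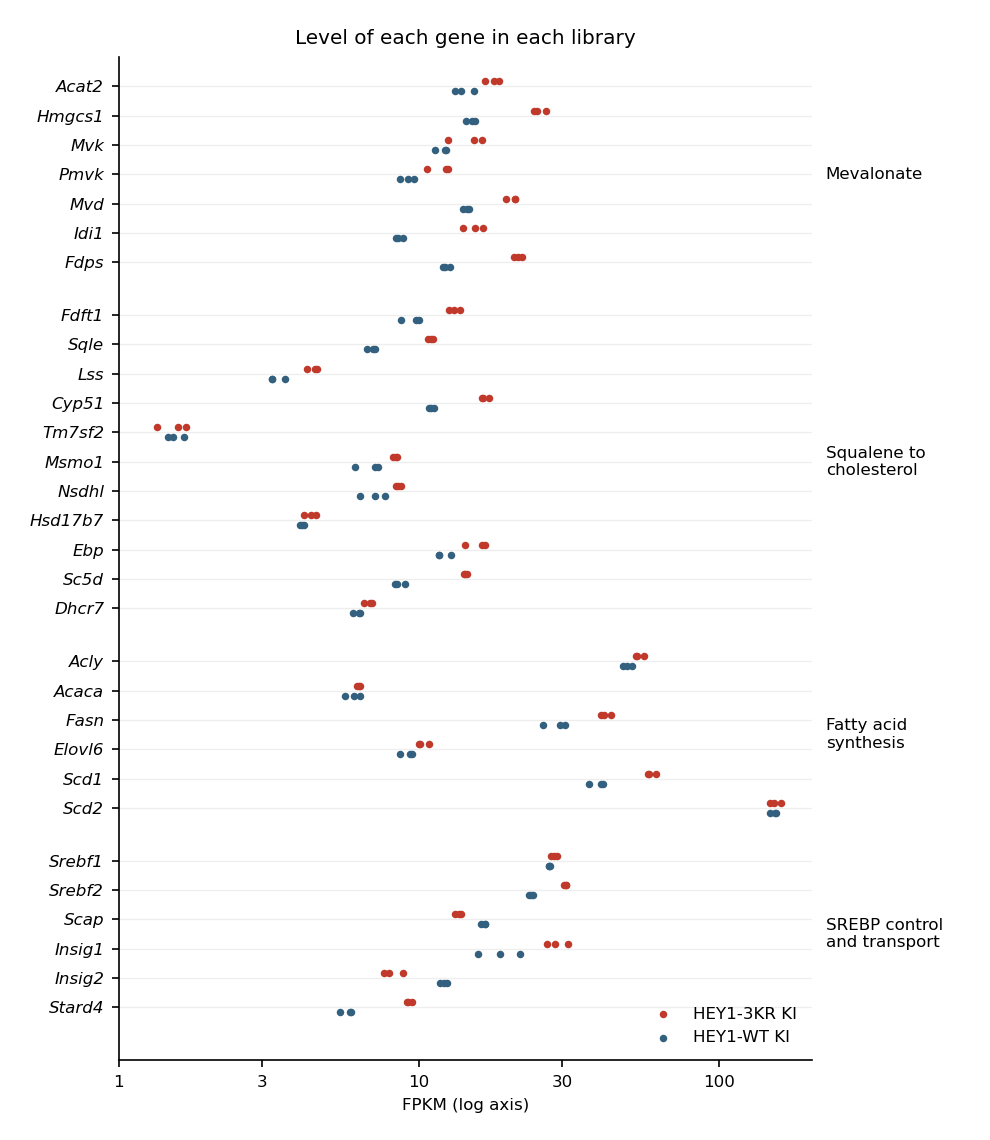
FPKM of each of the 30 genes in each library on a log axis, 3 points per genotype, by pathway step. The sterol genes sit between 1.34 and 26.5 FPKM, and the HEY1-3KR KI points of 17 of these 18 lie above all HEY1-WT KI points.

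Fatty acid synthesis was uneven, with 4 of 6 genes called higher and a median log2 fold change of 0.14. Scd1, the desaturase that makes oleate from stearate, lies on chromosome 19 at 44394450 to 44407709 and read 58.6, 61.6 and 58.1 FPKM in HEY1-3KR KI 1 to 3, against 36.9, 40.4 and 41.2 FPKM in HEY1-WT KI 1 to 3. All HEY1-3KR KI libraries stood above the HEY1-WT KI libraries, and Scd1 rose 1.505-fold, a log2 fold change of 0.58 ± 0.0480 (SE, limma, adjusted p = 1.5e-05). Its close copy Scd2 lies beside it on chromosome 19 at 44293676 to 44306864 and had the highest level of the 30, 152, 161 and 149 FPKM in HEY1-3KR KI 1 to 3, against 148, 154 and 156 FPKM in HEY1-WT KI 1 to 3. The Scd2 libraries of the genotypes overlapped, with a log2 interval of -0.08 to 0.10 (limma, adjusted p = 0.78). The ratio of Scd1 to Scd2 was 0.385, 0.383 and 0.391 in HEY1-3KR KI 1 to 3, against 0.249, 0.263 and 0.265 in HEY1-WT KI 1 to 3. Reads shared by the 2 copies could have been split between them, so each single value carries that uncertainty.

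Fasn, the synthase that builds palmitate, lies on chromosome 11 at 120805958 to 120825166 and read 41.4, 43.6 and 40.4 FPKM in HEY1-3KR KI 1 to 3, against 26.0, 30.7 and 29.6 FPKM in HEY1-WT KI 1 to 3. It rose 1.45-fold, a log2 fold change of 0.53 ± 0.0611 (SE, limma, adjusted p = 1.1e-04), with no overlap. Acly, which turns citrate into acetyl-CoA for both routes, averaged 54.2 ± 1.85 FPKM in HEY1-3KR KI and 49.6 ± 1.70 FPKM in HEY1-WT KI (SD, n = 3 each). Elovl6, which lengthens palmitate, averaged 10.3 ± 0.455 FPKM in HEY1-3KR KI and 9.18 ± 0.464 FPKM in HEY1-WT KI (SD, n = 3 each). Their rises were small, 1.09-fold and 1.13-fold (limma, adjusted p = 0.0292 and 0.0311). Under median-of-ratios scaling and quantile normalization Acly had adjusted p = 0.0674 and 0.0802, and Elovl6 had 0.0584 and 0.0975. Both calls were also lost without HEY1-3KR KI replicate 2 (adjusted p = 0.0890 for Acly and 0.0968 for Elovl6), without HEY1-WT KI replicate 1 (0.0904 and 0.0959) and without HEY1-WT KI replicate 3 (0.0768 and 0.0520), and in each of these 5 settings 2 of the 6 genes were called. Acaca, acetyl-CoA carboxylase, which supplies malonyl-CoA to FASN, averaged 6.31 ± 0.0626 FPKM in HEY1-3KR KI and 6.04 ± 0.358 FPKM in HEY1-WT KI (SD, n = 3 each) and was not called (log2 interval -0.06 to 0.17, adjusted p = 0.392). The summed level of the 6 genes was 322, 339.5 and 317 FPKM in HEY1-3KR KI 1 to 3, against 273, 292 and 291 FPKM in HEY1-WT KI 1 to 3, 1.14-fold higher, and 1.29-fold higher without Scd2.

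The genes that control SREBP moved in both directions. Srebf2, on chromosome 15 at 82147269 to 82205379, read 30.5, 30.9 and 31.0 FPKM in HEY1-3KR KI 1 to 3, against 23.4, 23.7 and 23.99 FPKM in HEY1-WT KI 1 to 3. The libraries of each genotype lay close to each other, and Srebf2 rose 1.302-fold, a log2 fold change of 0.37 ± 0.0329 (SE, limma, adjusted p = 2.3e-05). Srebf1, on chromosome 11 at 60199084 to 60224186, read 28.8, 27.6 and 28.2 FPKM in HEY1-3KR KI 1 to 3, against 27.2, 27.3 and 27.2 FPKM in HEY1-WT KI 1 to 3. Its HEY1-3KR KI libraries lay just above the HEY1-WT KI libraries, and it was not called (log2 interval -0.03 to 0.13, adjusted p = 0.247). The table gives 1 value per gene, so the isoforms of Srebf1 were not separated. The ratio of Srebf2 to Srebf1 was 1.09 ± 0.0301 in HEY1-3KR KI and 0.869 ± 0.0108 in HEY1-WT KI (SD, n = 3 each). Scap, the escort, on chromosome 9 at 110333288 to 110384949, read 13.9, 13.6 and 13.2 FPKM in HEY1-3KR KI 1 to 3, against 16.1, 16.7 and 16.7 FPKM in HEY1-WT KI 1 to 3. It fell, and was 1.21-fold lower in HEY1-3KR KI, a log2 fold change of -0.26 ± 0.0381 (SE, limma, adjusted p = 4.6e-04).

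The 2 INSIG genes moved apart. Insig1, on chromosome 5 at 28071412 to 28078662, read 26.7, 28.5 and 31.4 FPKM in HEY1-3KR KI 1 to 3, against 21.8, 18.7 and 15.7 FPKM in HEY1-WT KI 1 to 3. It was the most uneven of the 30 genes among HEY1-WT KI libraries, with a coefficient of variation of 16.2% against a median of 4.24%, and the genotypes still did not overlap. Insig1 rose 1.54-fold, a log2 fold change of 0.61 ± 0.105 (SE, limma, adjusted p = 0.00124), and leaving out any 1 library gave log2 fold changes of 0.49 to 0.72. Insig2, on chromosome 1 at 121304353 to 121332662, read 7.96, 8.84 and 7.68 FPKM in HEY1-3KR KI 1 to 3, against 11.8, 12.2 and 12.4 FPKM in HEY1-WT KI 1 to 3. All HEY1-3KR KI libraries were below all HEY1-WT KI libraries, and Insig2 was 1.48-fold lower, a log2 fold change of -0.52 ± 0.0542 (SE, limma, adjusted p = 5.9e-05). The ratio of Insig1 to Insig2 was 3.36, 3.22 and 4.09 in HEY1-3KR KI 1 to 3, against 1.85, 1.54 and 1.27 in HEY1-WT KI 1 to 3. Stard4, a cytosolic carrier of cholesterol, read 9.47, 9.23 and 9.15 FPKM in HEY1-3KR KI 1 to 3, against 5.93, 5.47 and 5.89 FPKM in HEY1-WT KI 1 to 3. It rose 1.61-fold, a log2 fold change of 0.60 ± 0.0461 (SE, limma, adjusted p = 8.8e-06), with no overlap between genotypes. The 6 genes of control and transport summed to 117, 119 and 121 FPKM in HEY1-3KR KI 1 to 3, against 106, 104 and 102 FPKM in HEY1-WT KI 1 to 3.

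**Figure D4:**
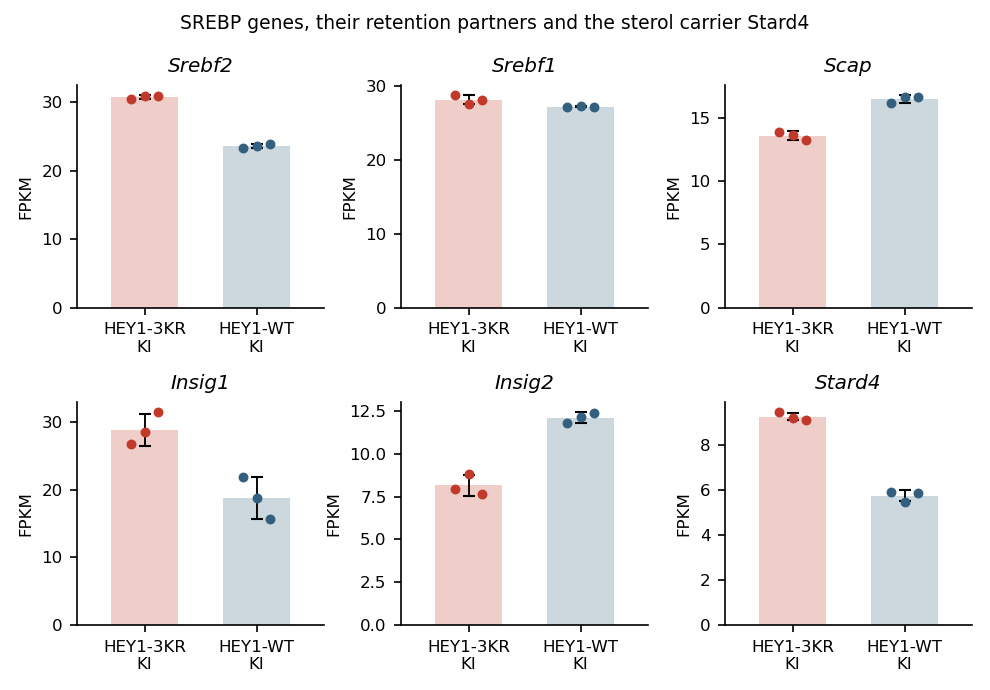
FPKM of the 6 genes of SREBP control and sterol transport, with a point per library, bars at the mean and error bars of 1 SD (n = 3 per genotype). Srebf2, Insig1 and Stard4 are higher in HEY1-3KR KI, Scap and Insig2 are lower, and Srebf1 was not called.

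In the order of FPKM, Scd2 led in both genotypes, at 154 ± 6.27 FPKM in HEY1-3KR KI and 152 ± 4.07 FPKM in HEY1-WT KI, followed by Scd1 and Acly at 59.4 and 54.2 FPKM in HEY1-3KR KI, and by Acly and Scd1 at 49.6 and 39.5 FPKM in HEY1-WT KI. Fasn was next in both, at 41.8 FPKM in HEY1-3KR KI and 28.8 FPKM in HEY1-WT KI. Tm7sf2, Lss and Hsd17b7 were the lowest in HEY1-WT KI, between 1.54 and 4.07 FPKM, and the same 3 genes were lowest in HEY1-3KR KI, between 1.53 and 4.45 FPKM. The 30 genes together summed to 675, 686 and 668 FPKM in HEY1-3KR KI 1 to 3, against 543, 554 and 559.6 FPKM in HEY1-WT KI 1 to 3, 1.22-fold higher. Without Scd2 the ratio was 1.31. The coefficient of variation over the 3 libraries had a median of 3.89% in HEY1-3KR KI and 4.24% in HEY1-WT KI.

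Other genes of the pathway, taken from 6 lists of 89 symbols, were read from the same fit. Of 84 tested, 27 were called higher and 18 lower, 32.1% and 21.4%, close to the shares of all tested genes. Among other genes of sterol synthesis 5 of 9 rose, 3 fell and 1 was not called (median log2 fold change 0.11). Lbr, a nuclear membrane protein that also acts as a sterol reductase, had 13.6, 13.2 and 12.99 FPKM in HEY1-3KR KI 1 to 3, against 7.85, 7.85 and 8.21 FPKM in HEY1-WT KI 1 to 3. It rose 1.66-fold, a log2 fold change of 0.67 ± 0.0413 (SE, limma, adjusted p = 2.4e-06), whereas Tm7sf2, which performs the same reaction, was not called. Tmem97, a sterol-regulated membrane protein, averaged 47.8 ± 2.91 FPKM in HEY1-3KR KI and 30.3 ± 0.301 FPKM in HEY1-WT KI (SD, n = 3 each) and rose 1.58-fold (limma, adjusted p = 5.8e-06). Cyb5a and Cyb5r3, a cytochrome b5 and its reductase that pass electrons to desaturases such as SC5D, were lower. Cyb5a read 33.0, 30.2 and 33.1 FPKM in HEY1-3KR KI 1 to 3, against 64.8, 62.6 and 67.2 FPKM in HEY1-WT KI 1 to 3, 2.02-fold lower (limma, adjusted p = 4.6e-07), and Cyb5r3 was 1.31-fold lower (limma, adjusted p = 1.3e-05). Cyb5b, another cytochrome b5, was added after its value was seen. It averaged 48.7 ± 1.08 FPKM in HEY1-3KR KI and 45.0 ± 0.645 FPKM in HEY1-WT KI (SD, n = 3 each). It rose 1.08-fold (limma, adjusted p = 0.0205). The call was lost without HEY1-3KR KI replicate 1 and without HEY1-WT KI replicate 1 or 2 (adjusted p = 0.0820, 0.0505 and 0.0618). Cytochrome b5 serves many pathways, and bulk RNA does not separate the cells its transcripts came from.

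Among other genes of fatty acid synthesis 7 of 24 tested rose, 4 fell and 13 were not called (median 0.041). These shares, 29.2% higher and 16.7% lower, were near or below the 29.9% and 23.4% of all tested genes. Acss2, which makes acetyl-CoA from acetate and is known as an SREBP target, read 2.53, 2.30 and 2.79 FPKM in HEY1-3KR KI 1 to 3, against 6.76, 6.76 and 7.01 FPKM in HEY1-WT KI 1 to 3. It moved against most of the 30 genes and was 2.69-fold lower, a log2 fold change of -1.15 ± 0.0597 (SE, limma, adjusted p = 8.8e-07). Me1, the malic enzyme that supplies NADPH for fatty acid synthesis, averaged 24.6 ± 1.29 FPKM in HEY1-3KR KI and 42.8 ± 0.560 FPKM in HEY1-WT KI (SD, n = 3 each) and was 1.74-fold lower (limma, adjusted p = 1.3e-06). Fads3, of the fatty acid desaturase family, was 1.49-fold lower (limma, adjusted p = 1.7e-05), at 30.1 ± 1.92 FPKM in HEY1-3KR KI and 44.9 ± 0.765 FPKM in HEY1-WT KI (SD, n = 3 each). Fads1 and Fads2 of the same family were added after their values were seen. They went the other way, 1.13-fold and 1.17-fold higher in HEY1-3KR KI (limma, adjusted p = 0.00557 and 7.2e-04). Elovl5, an elongase of polyunsaturated fatty acids, averaged 27.3 ± 0.434 FPKM in HEY1-3KR KI and 21.5 ± 0.290 FPKM in HEY1-WT KI (SD, n = 3 each) and rose 1.27-fold (limma, adjusted p = 5.2e-05). Of 11 genes in side branches of the mevalonate route 2 rose, 1 fell and 8 were not called (median 0.049). Both shares, 18.2% higher and 9.09% lower, were below those of all tested genes. Fntb, the farnesyltransferase beta subunit, rose 1.27-fold (limma, adjusted p = 0.0123). Pdss1 and Pdss2, the subunits that make the tail of ubiquinone, moved apart. Pdss1 averaged 2.71 ± 0.295 FPKM in HEY1-3KR KI and 2.18 ± 0.166 FPKM in HEY1-WT KI and rose 1.24-fold (limma, adjusted p = 0.0308), and Pdss2 averaged 1.38 ± 0.137 FPKM in HEY1-3KR KI and 1.896 ± 0.238 FPKM in HEY1-WT KI and fell, 1.38-fold lower (limma, adjusted p = 0.0135). The Pdss1 call was lost without HEY1-3KR KI replicate 2 or 3 (adjusted p = 0.0986 and 0.0803), without HEY1-WT KI replicate 1 or 2 (adjusted p = 0.0592 and 0.103) and with no filter, quantile normalization or array weights (adjusted p = 0.0603, 0.0899 and 0.0524), and that of Pdss2 without HEY1-WT KI replicate 2 (adjusted p = 0.0513).

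**Figure D5:**
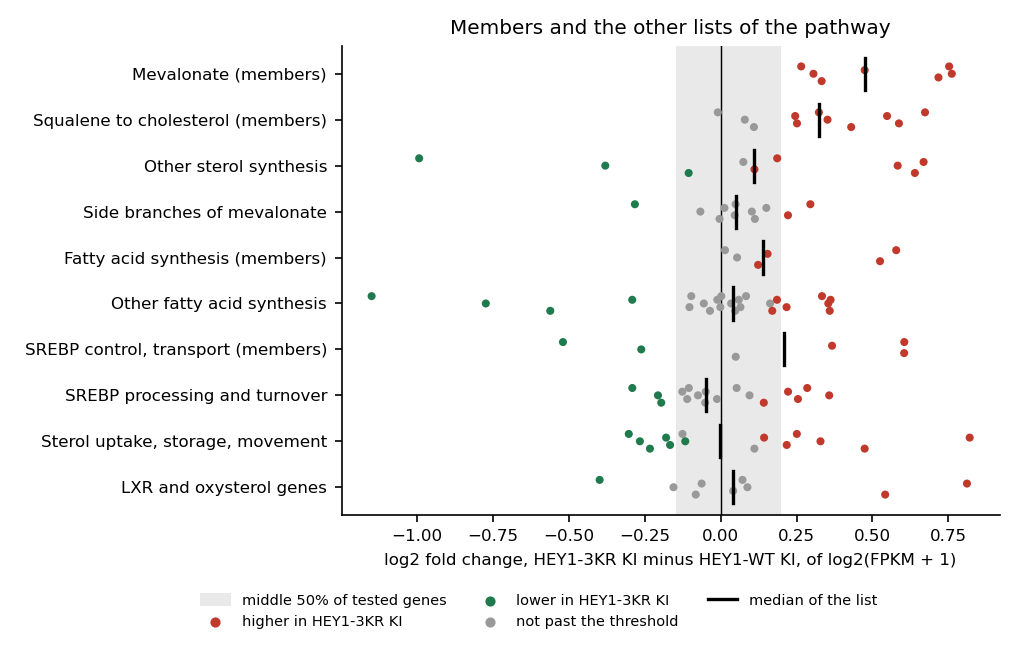
Log2 fold change, HEY1-3KR KI minus HEY1-WT KI on the log2(FPKM + 1) scale, of each tested gene in the 4 steps of the 30 genes and in 6 other lists of the pathway, with the median of each list as a bar and the middle 50% of all tested genes in grey. The medians of the mevalonate, squalene and SREBP control steps, 0.47, 0.32 and 0.21, lie outside the grey band, and those of fatty acid synthesis, 0.14, and of the 6 other lists lie inside it.

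For the processing and turnover of SREBP, 5 of 17 genes rose, 3 fell and 9 were not called (median -0.049). These shares, 29.4% higher and 17.6% lower, were near or below the 29.9% and 23.4% of all tested genes. Mbtps1, the first Golgi protease that cuts SREBPs, averaged 16.6 ± 0.409 FPKM in HEY1-3KR KI and 13.7 ± 0.430 FPKM in HEY1-WT KI (SD, n = 3 each) and rose 1.21-fold (limma, adjusted p = 7.6e-04). Mbtps2, the second, which was added after its value was seen, averaged 4.18 ± 0.0260 FPKM in HEY1-3KR KI and 4.22 ± 0.130 FPKM in HEY1-WT KI and was not called (log2 interval -0.12 to 0.09). The NF-Y subunits Nfyc and Nfya rose 1.31-fold and 1.19-fold (limma, adjusted p = 4.9e-04 and 0.00204), and Ubxn4, an adaptor of protein disposal at the endoplasmic reticulum, was 1.23-fold lower (limma, adjusted p = 4.3e-04). In the list of sterol uptake, storage and movement 6 of 14 tested rose, 6 fell and 2 were not called (median -0.0026). That is 42.9% in each direction, above both shares of all tested genes. Apoe, the lipoprotein component that macrophages make in quantity, read 1278, 1209 and 1306 FPKM in HEY1-3KR KI 1 to 3, against 743, 698 and 706 FPKM in HEY1-WT KI 1 to 3, 1.77-fold higher (limma, adjusted p = 7.2e-07). The median fold of the 14 macrophage markers was 1.82 in the same libraries, and their sum, most of which was Lyz2 at 3482 ± 121 FPKM in HEY1-3KR KI and 3138 ± 51.3 FPKM in HEY1-WT KI (SD, n = 3 each), was 1.305-fold higher. The part of macrophages in the Apoe value was not tested. Scarb1, a receptor for high-density lipoprotein, rose 1.43-fold (limma, adjusted p = 1.8e-05), with averages of 15.4 ± 0.559 FPKM in HEY1-3KR KI and 10.8 ± 0.0540 FPKM in HEY1-WT KI (SD, n = 3 each). Lipa and Npc2, which free cholesterol from lipoproteins in lysosomes and hand it on, were 1.24-fold and 1.18-fold lower (limma, adjusted p = 2.3e-04 and 0.0018).

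Genes of the sterol-sensing LXR receptors and of oxysterols were mostly not called, with 2 of 9 higher, 1 lower and 6 not called (median 0.041). Both shares, 22.2% higher and 11.1% lower, were below the 29.9% and 23.4% of all tested genes. Abca1, an LXR target that exports cholesterol, read 12.2, 13.9 and 12.5 FPKM in HEY1-3KR KI 1 to 3, against 15.8, 18.0 and 18.1 FPKM in HEY1-WT KI 1 to 3. The genotypes did not overlap, and Abca1 was 1.34-fold lower, a log2 fold change of -0.40 ± 0.0664 (SE, limma, adjusted p = 9.9e-04). Ch25h, which makes an oxysterol known to restrain SREBP processing, read 12.0, 9.83 and 9.70 FPKM in HEY1-3KR KI 1 to 3, against 4.94, 6.05 and 5.62 FPKM in HEY1-WT KI 1 to 3. It rose 1.89-fold, a log2 fold change of 0.81 ± 0.0880 (SE, limma, adjusted p = 7.4e-05). Cyp7b1, which breaks oxysterols down, averaged 2.1 ± 0.454 FPKM in HEY1-3KR KI and 1.11 ± 0.0329 FPKM in HEY1-WT KI (SD, n = 3 each) and rose 1.89-fold (limma, adjusted p = 0.00194).

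Set against the promoter scan, the 19 genes with an NF-Y box comprised 14 that were called higher, 1 lower and 4 not called. The 5 genes with a window and no NF-Y box, Acaca, Acat2, Acly, Elovl6 and Scap, comprised 3 higher, 1 lower and 1 not called. Insig1 and Insig2 both held an NF-Y box and moved in opposite directions. In Insig2 the box was found only in the printed window, and the windows of its other starts held only a GC box. The level of a gene was not split by start. The numbers are too small to set these groups apart, and no test was made.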

How the data were processed

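RNA-seq of 6 MLEC libraries was analysed from 1 table. Per the file headers, the authors deposited FPKM for each gene in a column per library. FastQC 0.19.7, HISAT2 2.1.0, SAMtools 1.9, StringTie 1.3.3b and mm10 stand in the submitters' processing notes. Their annotation, and how strand, shared reads and the summary of transcripts into genes were handled, were not given in the sources used here. Because FPKM is relative to a library's total, a rise of abundant genes lowers the rest.

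Columns were matched to samples by title. The 11432 genes that reached 1 FPKM in 3 or more of the 6 libraries were tested. Values were taken as log2(FPKM + 1) and compared by limma 3.58.1 in R 4.3.3 (variance trend, no covariates, two-sided), with Benjamini-Hochberg adjustment over all tested genes and a threshold of 0.05. The procedure was tested on simulated data. Intervals of 95% come from the same fit. Folds are ratios of mean FPKM. Of 2396 single-transcript genes, 492 to 595 per library had a low FPKM times length. Of these values 44.1% to 53.1% lay within 0.1 of a whole multiple of the best step, where an even spread gives 20%. The step was chosen to fit these same values, so 20% is not the level expected after that choice. Many values lay off whole multiples, so the deposited FPKM did not give back whole fragments and a count test was left out. Precision therefore rests on the 3 libraries per genotype. No 2 libraries shared an identical value above 0.

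The genes and lists were chosen with earlier results of these data known. Of the other pathway lists, genes past the threshold with the 4 smallest p were named, and of each marker list the 3 of highest mean. Faxdc2 had no entry. Overlapping exons were read from GENCODE M21, positions and promoters from RefSeq on GRCm38.p6, the assembly behind mm10. A planned alignment of proteins was not made. Tables and figures were made in Python 3.11.15 with pandas 2.3.3, scipy 1.17.1, numpy 2.4.6 and matplotlib 3.10.9. Alternatives were other filters, pseudocounts, scalings and variance models, the replicate number as a block, and leaving out each library.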

Additional observations from a re-analysis of the deposited data

How the results depend on the processing

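The count of the 30 genes called higher in HEY1-3KR KI was 22 and stayed between 19 and 22 over 15 alternatives, and 2 were called lower in each. Leaving out 1 library gave 19 to 21 higher. The count of all genes called was 6084 and ranged from 5393 to 6743, with 5393 to 5664 when a library was left out. Over all genes the split was 3414 higher and 2670 lower, against 3146 and 2911 after median-of-ratios scaling and 2911 and 3290 after quantile normalization. The median of all tested genes was 0.019 on the log2 scale, against -0.00039 and -0.023 under these scalings, and that of the 30 genes was 0.33, against 0.31 and 0.29. Among the 30 genes, the calls of Mvk, Acly and Elovl6 were the ones lost under any alternative, that of Acly also with no variance trend (adjusted p = 0.0547), and 429 of 450 values of single genes kept their direction and their side of the threshold. None of the called genes changed direction. Scd2 and Tm7sf2, which were not called, changed sign under some alternatives. The summed FPKM of the squalene to cholesterol genes was 1.35-fold higher in HEY1-3KR KI and 1.31-fold higher after quantile normalization. The cause was not tested. The other pathway lists had 45 called genes, and 39 to 46 over the alternatives. Deviations from the genotype mean correlated at -0.191, 0.254 and -0.272 between libraries with the same number, for numbers 1 to 3. Between libraries with different numbers the correlations ran from -0.240 to 0.381. The highest were 0.381 for HEY1-3KR KI 3 with HEY1-WT KI 1 and 0.265 for HEY1-3KR KI 1 with HEY1-WT KI 3. With 3 libraries per genotype these values cannot show whether the samples were paired. With the replicate block 6134 genes were called, and the 30 genes kept 22 higher and 2 lower. Depth was only approximate, so no counting interval is given for low genes such as Tm7sf2.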
